A study of Arabidopsis thaliana with 72 samples.

Results

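Cruciferins and 2S albumins are the proteins in which an Arabidopsis seed lays down nitrogen and sulfur for the germinating embryo. Both are made during seed filling, sorted to the protein storage vacuole and cut there into chains by vacuolar processing enzymes, and both are broken down after germination. Their genes are known targets of the B3 factors ABI3, FUS3 and LEC2, which bind RY elements, and of bZIP factors, which bind ACGT-containing elements. The 9 genes described here were chosen by identifier from a table of 32833 genes: the 4 cruciferin genes CRA1 (AT5G44120), CRB (AT1G03880, CRU2 in RefSeq), CRU3 (AT4G28520) and AT1G03890, and the 5 2S albumin genes SESA1 (AT4G27140), SESA2 (AT4G27150), SESA3 (AT4G27160), SESA4 (AT4G27170) and SESA5 (AT5G54740). Inside them, on the same strand, lay 12 of the 8512 pseudouridine (Ψ) sites of the study, and none lay on the other strand.

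The samples were 9 tissues of Arabidopsis thaliana accession Col-0, with no mutant and no treatment of the plants: completely mature, dried seed; silique, flower, cauline leaf and stem, collected after flowering; 7-day seedling; shoot and root, each of 14-day plants; and rosetta leaf of 30-day plants. Poly(A)+ RNA of each tissue went into BID-seq, in which bisulfite makes reverse transcriptase skip Ψ, so that Ψ appears as a deletion in the reads. The bisulfite-treated libraries numbered 56, with 5 to 7 for a tissue, and the untreated input libraries 16. Expression was given as TPM (a level scaled by gene length, as a part of the library's total) in 16 libraries, of which seed and rosetta leaf had 1 each and the other 7 tissues had 2 each. Ψ fractions were pooled over the replicates of a tissue and have no error, and read depth is unknown for both measures. A silique holds fruit wall and developing seeds together, so more seed cells and more RNA per seed cell cannot be told apart in these bulk samples.

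The summed markers of seed, flower, fruit, root and stem were each highest in the tissue they mark, although FUL of the fruit list was higher in flower, cauline leaf and stem than in silique. The 4 seed markers summed to 20385 TPM in seed, 3600.2 and 3599 TPM in silique, and 24.9 to 155 TPM in the other libraries, and no seed marker was at 0 in any tissue. The lowest was EM1 in cauline leaf, with 0.684 and 1.07 TPM. All 8275 nuclear sites carried their stated 7-base motif at the stated position of the RefSeq TAIR10.1 sequence, which was therefore used for gene models and sequences.

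SESA1 to SESA4 stand in a row on the plus strand of chromosome 4: SESA1 at chr4:13607329-13608031, SESA2 at chr4:13609341-13610075, SESA3 at chr4:13611796-13612563 and SESA4 at chr4:13613596-13614283. SESA5 stands apart from them at chr5:22238358-22239187 on the minus strand. CRB (chr1:985751-988146) and AT1G03890 (chr1:989198-991020) are neighbours on the plus strand of chromosome 1, CRU3 lies at chr4:14087556-14089796 on the plus strand and CRA1 at chr5:17756238-17758336 on the minus strand. The 5 albumin genes have 1 exon each and coding sequences of 495 to 513 bases, whereas the 4 cruciferin genes have 4 exons each and coding sequences of 1356 to 1575 bases. SESA2 and SESA3 were the most alike, with 93.7% of 492 aligned coding bases identical. SESA1 to SESA4 shared 85.4% to 93.7% among themselves and 62.2% to 63.7% with SESA5. Among the cruciferins CRA1 and CRB shared 76.2%, and AT1G03890 was the least like the others at 55.6% to 57.9%.

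The upstream sequences are shown because the genes move together across tissues, and SESA3, SESA5 and CRB are printed as the highest gene in seed, the gene that differed most between seed and silique and the gene without a match. In the 250 bases before each annotated start, on either strand, the RY core CATGCA was found in 8 of the 9 genes, against 8.78% of 32546 nuclear genes, and the G-box CACGTG in 5 of 9, against 5.9%. Those with a G-box were the 5 albumin genes, in each of which it lay 60 to 63 bases before the start. The shorter ACGT, which is part of the G-box, was found in 6 of 9, the albumin genes and CRU3, against 42.8% of genes. The longer RY element CATGCATG, which contains the core on both strands, was found in SESA3, SESA4 and SESA5, against 0.873% of genes. SESA1 to SESA4 are close copies in a row, so their matches need not be independent of each other. CRB had none of these in the window. The last 150 bases before the start, 5′ to 3′ on the gene's strand, are printed here with matches to the RY core or the G-box in capitals, for SESA3 (chr4:13611646-13611795, plus), SESA5 (chr5:22239188-22239337, minus) and CRB (chr1:985601-985750, plus).
SESA3: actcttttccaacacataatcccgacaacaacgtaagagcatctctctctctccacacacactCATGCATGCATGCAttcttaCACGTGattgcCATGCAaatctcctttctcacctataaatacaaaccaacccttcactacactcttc
SESA5: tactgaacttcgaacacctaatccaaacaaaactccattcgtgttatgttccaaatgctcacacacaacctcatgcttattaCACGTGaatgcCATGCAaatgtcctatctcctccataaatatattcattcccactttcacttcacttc
CRB: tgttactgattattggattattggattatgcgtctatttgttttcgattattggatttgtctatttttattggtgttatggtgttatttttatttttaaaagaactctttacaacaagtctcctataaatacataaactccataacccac
SESA3 and SESA5 carry the same order of G-box and RY core at nearly the same distance from the start. A match is a string of letters and does not show that a factor binds there.

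All 9 genes were at their highest in seed and silique, and together they made up 3.43% of all TPM in seed, 1.58% and 1.61% in silique, and 0.00447% to 0.0716% in the other 13 libraries. Seed was the highest tissue for 8 genes and silique for SESA2. Seedling came next for all 9, and root after it, with root overlapping seedling for CRB, AT1G03890, SESA3 and SESA5.

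CRA1, which encodes a cruciferin subunit, had 5226 TPM in seed and 2212 and 2166 TPM in silique. It had 90.1 and 99.2 TPM in seedling, 19.4 and 80.5 TPM in root, and 6.54 to 16.6 TPM in flower, shoot, rosetta leaf, cauline leaf and stem. Seed, silique, seedling and root did not overlap each other or the rest, and from cauline leaf down each tissue overlapped the one above it in order. CRU3, which encodes another cruciferin subunit, had 5027 TPM in seed and 2497 and 2454 TPM in silique, where only SESA3 exceeded it among all genes. In seedling CRU3 had 106 and 116 TPM. CRB encodes a further subunit. It had 3435 TPM in seed, 1673 and 1651 TPM in silique, and 28.3 and 25.9 TPM in seedling. In root it had 7.23 and 29.3 TPM.

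AT1G03890, annotated in RefSeq only as a cupin-superfamily protein, was the lowest of the 9 genes in every library. It had 439 TPM in seed and 370 and 372 TPM in silique, 2.79 and 2.91 TPM in seedling and 1.53 and 3.3 TPM in root. In the other 5 tissues it stayed between 0.0632 and 0.481 TPM. Its seed level was 2224 times its lowest tissue mean, that of stem, and the ratio of silique to flower was 1363.

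SESA3 was the highest of the 9 in seed and silique, with 6471 TPM in seed, rank 7 of all genes there, and 2989 and 2886 TPM in silique, rank 1. It had 89.7 and 107 TPM in seedling and 43.2 and 149 TPM in root. SESA1 had 2507 TPM in seed and 1896 and 1837 TPM in silique, and SESA4 had 2850 TPM in seed and 1908 and 1868 TPM in silique. Both were 1.34 to 1.51 times as high in seed as in silique. SESA2 alone was lower in the seed library than in silique, with 1914 TPM in seed and 2164 and 2075 TPM in silique. It was also the highest of the 9 in seedling, at 124 and 143 TPM.

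SESA5 had 6417 TPM in seed, rank 8 of all genes, but only 399 and 451 TPM in silique, ranks 344 and 275. No other member had a seed to silique ratio above 2.39, and that of SESA5 was 15.1. In seedling it had 26.1 and 31.9 TPM, and from seedling through root, stem, flower and rosetta leaf each tissue overlapped the one above it in order, so that neighbours in that order were not told apart.

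**Figure D1:**
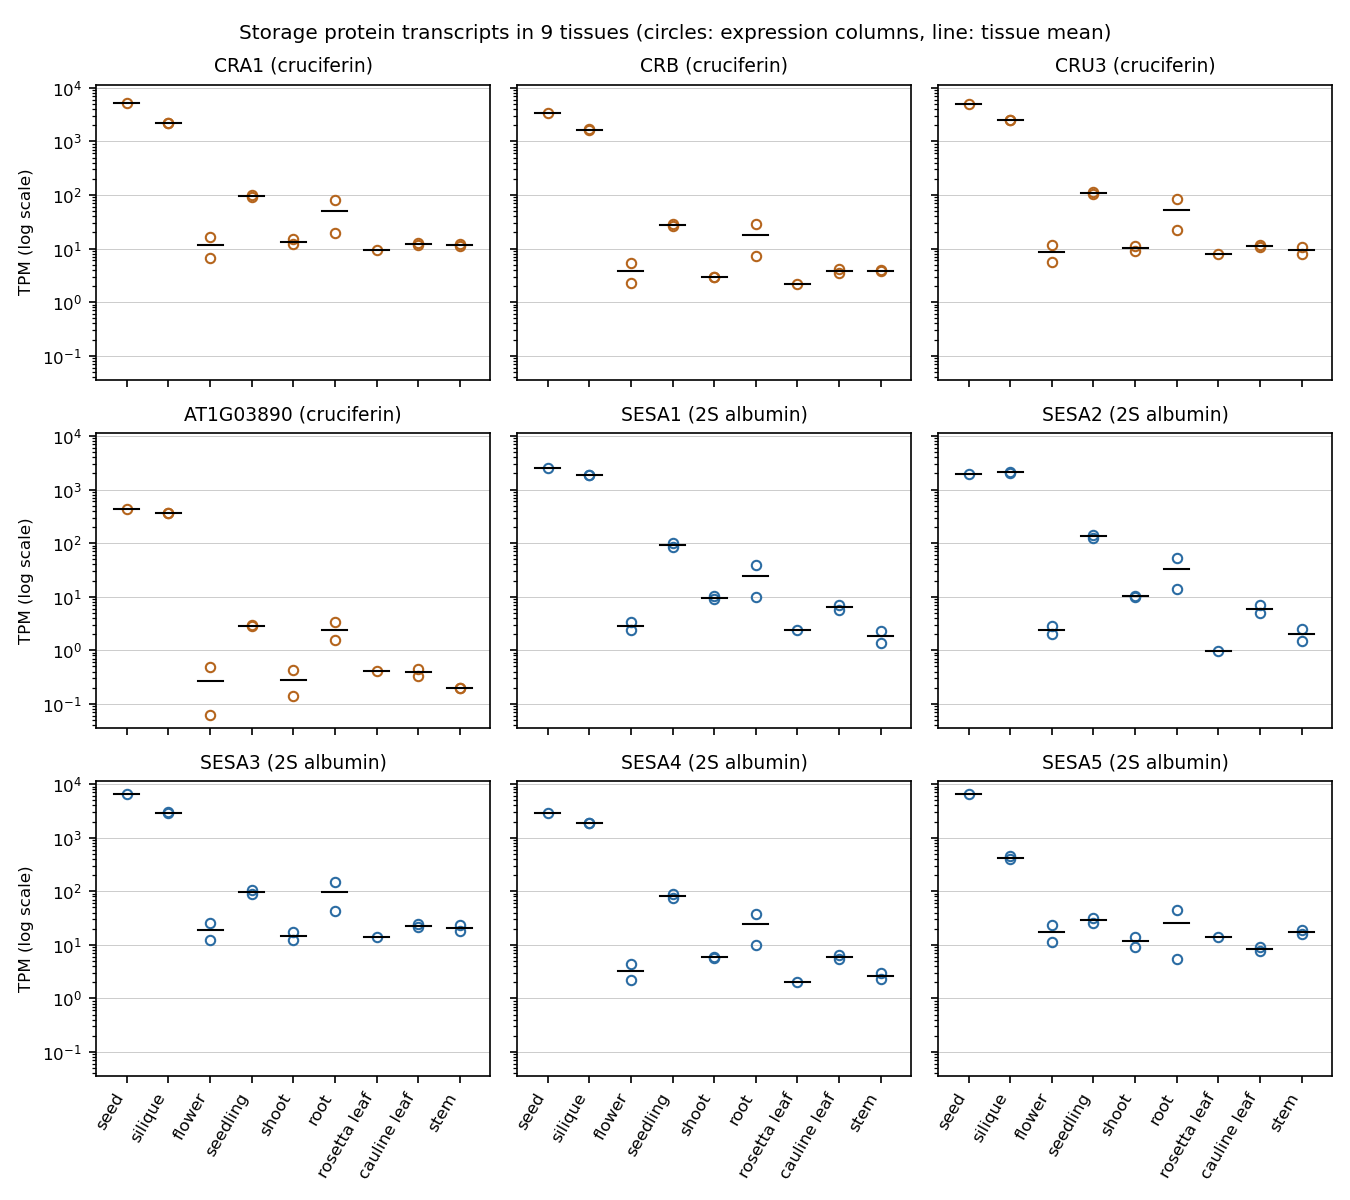
TPM on a log axis (vertical) in 9 tissues (horizontal) for each of the 9 genes; a circle is an expression library and a line the tissue mean. Seed and silique stand above the other 7 tissues in all panels, seedling comes next, SESA5 has 6417 TPM in seed and 425 TPM in silique (mean), and the root pair is wide apart.

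Seed was compared with the mean of the other 8 tissues to measure how far the storage genes stood out. All 9 genes were higher in seed (limma, adjusted p over 26078 genes), where 22.8% of all genes were called higher. The members' median log2 difference was 7.20, against -0.63 over all genes. The log2 difference ranged from 6.71 (SE 0.45, adjusted p = 4.89e-08) for SESA2 to 8.05 (SE 0.70, adjusted p = 5.35e-07) for SESA5. CRB was the highest cruciferin at 8.01 (SE 0.47, adjusted p = 1.49e-08). With the median gene of every library set level, an alternative chosen after seeing the data, all 9 were again called higher, among 35.8% of all genes called higher and 43.1% lower. Seed had 1 library, so its spread was assumed to be that of the other tissues.

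Seed against silique asks what changes between fruit with developing seeds and the dry seed. SESA5 was higher in seed by a log2 difference of 3.92 (SE 0.83, adjusted p = 0.00101), and it alone among the 9 genes passed the threshold, where 22.5% of all genes were called higher and 56% lower. The log2 difference was 1.26 for CRA1 (SE 0.63, adjusted p = 0.0900), 1.14 for SESA3 (SE 0.57, adjusted p = 0.0877), 1.05 for CRB (SE 0.56, adjusted p = 0.110) and 1.02 for CRU3 (SE 0.58, adjusted p = 0.128). It was 0.59 for SESA4, 0.43 for SESA1, 0.24 for AT1G03890 and -0.15 for SESA2 (SE 0.28 to 0.54, adjusted p from 0.337 to 0.824). The members' median was 1.02, against -0.63 over all genes. The error of these differences rested on the root pair: with both root libraries left out, an alternative chosen after seeing the data, 6 of the 9 genes were called higher in seed (23.2% of all genes), CRA1, CRB, CRU3, SESA3 and SESA4 joining SESA5, with adjusted p = 0.0041 to 0.0351 for those 5. Leaving out either root library alone gave the same 6.

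The scale also bears on this comparison. With the median gene of every library set level, 39.3% of all genes were called higher and 43% lower in seed against silique, and again 6 members were called higher: CRA1, CRB, CRU3, AT1G03890, SESA3 and SESA5. On that scale SESA2 had a log2 difference of 0.48 (adjusted p = 0.420), so the sign of its difference depends on the scale. Ratios between members within a library do not. The ratio of SESA5 to SESA2 was 3.35 in seed and 0.184 and 0.217 in silique, and that of SESA3 to SESA2 was 3.38 in seed and 1.38 and 1.39 in silique.

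**Figure D2:**
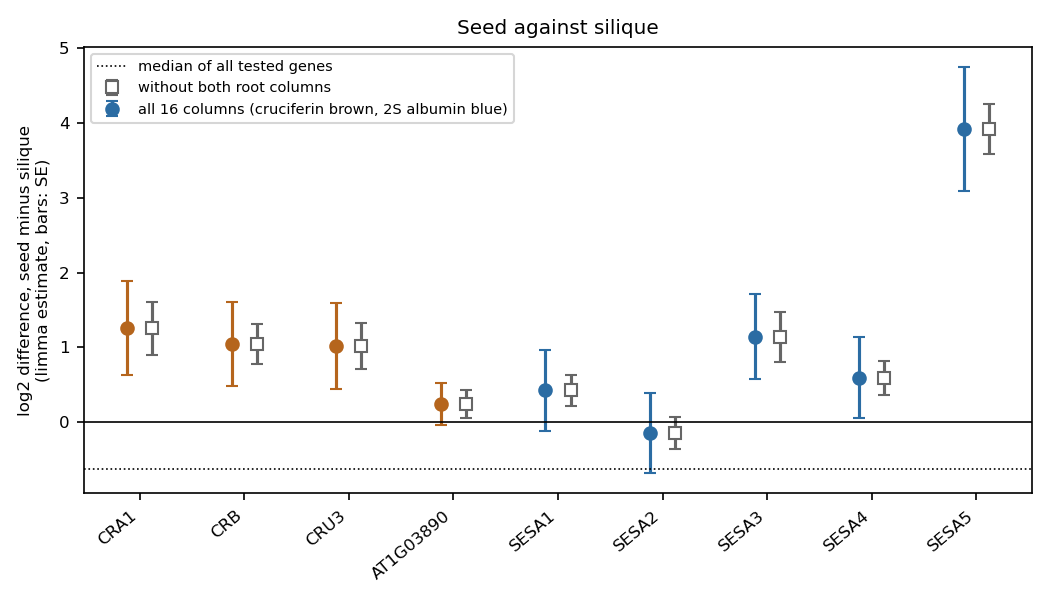
The log2 difference, seed minus silique, with its SE (vertical), for each of the 9 genes (horizontal), fitted over all 16 libraries (filled) or without both root libraries (open). SESA5 stands at 3.92, the other 8 between -0.15 and 1.26, and the dotted line marks the median of all genes at -0.63.

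Silique was set against flower, the stage before it, to follow the genes from flower to fruit with developing seeds. SESA2 had 2164 and 2075 TPM in silique and 2.82 and 2.05 TPM in flower, a log2 difference of 9.28 (SE 0.44, adjusted p = 5.45e-09). SESA5 had 399 and 451 TPM in silique and 23 and 11.1 TPM in flower, a log2 difference of 4.64 (SE 0.67, adjusted p = 8.53e-05), the lowest of the 9. All 9 were called higher, with a median of 8.21 against -0.07 over all genes, where 29.8% of genes were called higher. Silique was also set against the mean of the 7 tissues other than seed and silique. All 9 genes were called higher, where 37.7% of all genes were, with log2 differences from 4.72 (SE 0.51, adjusted p = 6.51e-06) for SESA5 to 7.96 (SE 0.35, adjusted p = 2.16e-09) for CRB. These 2 comparisons share the silique libraries and the flower libraries.

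Seedling was compared with shoot, whole plants of 7 days against the shoots of 14-day plants, to follow the storage transcripts after germination, and organ and age cannot be told apart here. SESA4 had 74.2 and 87.6 TPM in seedling and 5.9 and 5.78 TPM in shoot, a log2 difference of 3.58 (SE 0.44, adjusted p = 3.49e-05). SESA2 had 124 and 143 TPM in seedling and 10.0 and 10.5 TPM in shoot, a log2 difference of 3.57 (SE 0.44, adjusted p = 3.23e-05). Seedlings were thus 13.9 and 13.0 times above shoots for these albumins, and 9.19 to 11 times for CRB, CRU3, SESA1 and AT1G03890. For CRA1 and SESA3 the ratios were 6.99 and 6.76. That of AT1G03890 rests on shoot values of 0.139 and 0.421 TPM, and its log2 difference was only 1.60 (SE 0.22). Of the 9 genes, 8 were called higher in seedling, where 22.7% of all genes were, and the members' median was 2.83 against -0.09 over all genes. Some markers moved with this comparison. Of the 2 root markers, CASP1 averaged 37.4 TPM in seedling and 1.52 TPM in shoot (n = 2 each). The other, NRT2.1, had a log2 difference of 0.05 (limma adjusted p = 0.777). Of the 4 seed markers 3 were called higher in seedling, OLEO1 at 1.72, OLEO2 at 1.60 and EM1 at 1.20 on the log2 scale. All 3 stem markers and all 3 green tissue markers were called higher in seedling too. The mean of each member was also higher in root than in shoot. In root replicate 1, however, SESA5 had 5.37 TPM, below both shoot libraries, and SESA1 had 9.83 TPM, between its shoot values of 8.90 and 10.2 TPM. For the other members both root libraries lay above both shoot libraries. The part of root tissue in the seedling values was not tested. SESA5 had 26.1 and 31.9 TPM in seedling and 9.27 and 13.9 TPM in shoot, a log2 difference of 1.27 (SE 0.67, adjusted p = 0.133). Without either root library that difference passed the threshold (limma adjusted p = 0.0027 for each).

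The make-up of the storage transcripts separated the tissues in a way their sums did not. Albumins held 57.8% to 67.6% of the members' TPM in all 16 libraries, with 58.8% in seed and 57.8% and 58.1% in silique. Within that share, SESA5 held 18.7% of the members' TPM in seed and 2.48% and 2.86% in silique, 4.17% and 4.46% in seedling, but 24.1% to 26.5% in flower, rosetta leaf and stem. SESA2 held 5.58% in seed, 13.2% and 13.4% in silique and 19.9% in each seedling library, against 1.81% to 4.58% in flower, rosetta leaf and stem. The remaining tissues lay between these. SESA5 held 4.05% and 8.71% in root, 10.8% and 11.2% in cauline leaf and 13.2% and 16.0% in shoot, and SESA2 held 10.5% and 10.1% in root, 6.84% and 8.49% in cauline leaf and 14.2% and 12.1% in shoot. The shares of SESA5 and SESA2 thus set silique and seedling apart from flower, rosetta leaf and stem. The tissues between did not fall in a single order. Shoot was about as high in SESA2 as silique but well above it in SESA5, and root replicate 1 was as low in SESA5 as seedling.

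Over the 9 genes, log2 TPM in flower correlated with that in seed at r = 0.977 and 0.984 and in stem at 0.973 and 0.983, whereas seedling correlated with seed at 0.692 and 0.691 and with silique at 0.862 and 0.838. These correlations are descriptions over 9 points that share gene length and library. Beside them stand the seed markers. In the 2 flower libraries the members' sum was 0.274% and 0.130% of that in seed, and the 4 seed markers' sum was 0.287% and 0.129% of that in seed. In stem the members stood at 0.184% and 0.225% and the markers at 0.200% and 0.225%, and in rosetta leaf the members stood at 0.156% and the markers at 0.198%. In the other low tissues the members stood above the markers in every library. In root the members were at 0.387% and 1.52% and the markers at 0.157% and 0.760%, in shoot the members at 0.205% and 0.253% and the markers at 0.122% and 0.183%, and in cauline leaf the members at 0.209% and 0.242% and the markers at 0.128% and 0.142%. In seedling the members stood at 1.83% and 2.09% of seed and the markers at 0.387% and 0.428%, and in silique at 47.0% and 46.0% against 17.7% each. The part of whatever moves the seed markers in the low levels of the members was not tested.

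**Figure D3:**
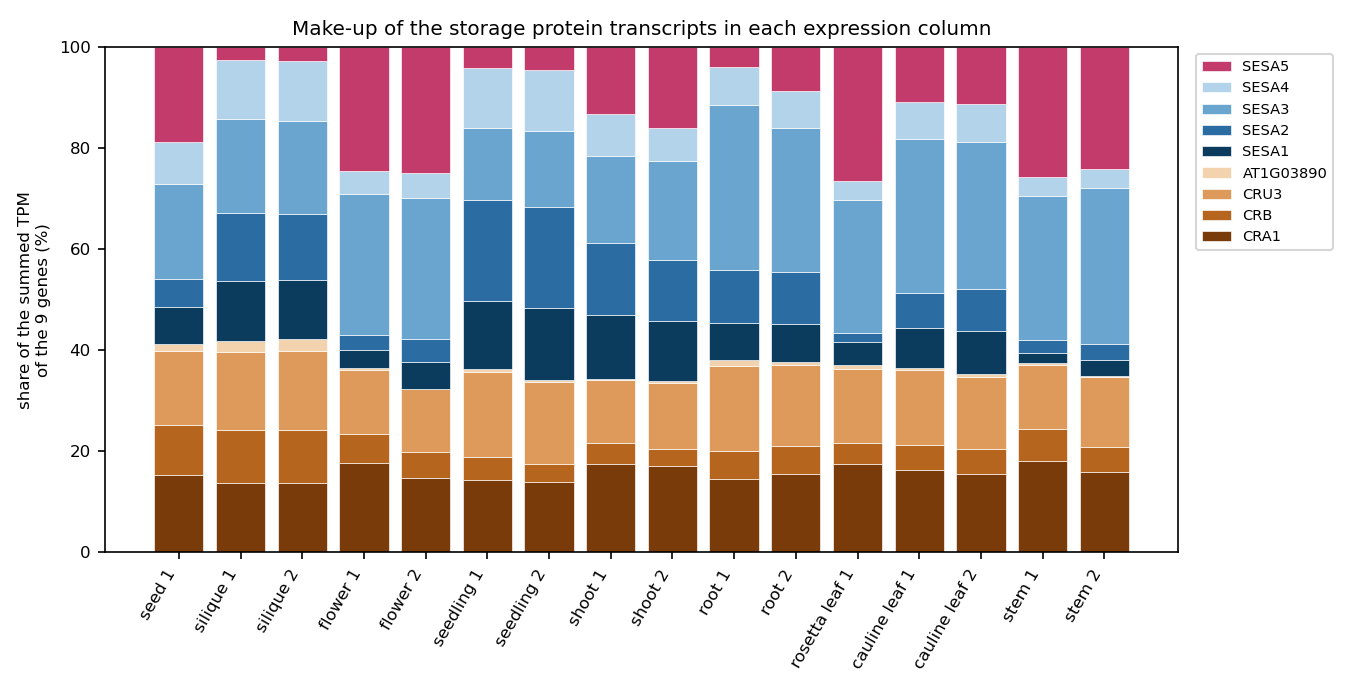
The share of each gene in the summed TPM of the 9 genes (vertical, percent) in each of the 16 libraries (horizontal, tissue and replicate). SESA5 (top) takes 18.7% in seed, under 5% in silique and seedling, and 24.1% to 26.5% in flower, rosetta leaf and stem.

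The root and flower pairs need their values given apart. In root, replicate 2 was above replicate 1 for all 9 genes, at ratios of 2.16 for AT1G03890, 3.44 to 4.16 for the other cruciferins and SESA1 to SESA4, and 8.45 for SESA5. Over all 26078 genes the median log2 difference within the root pair was -0.02, and 1.23% of genes were above 1, among them 8 of the 9 members. The 4 seed markers were higher in root replicate 2 as well, by log2 differences of 1.41 to 2.31. Of the 320 genes above 1, 46.9% had their highest tissue mean in seed, against 14.6% of all genes tested. SESA5 was thus the member furthest apart in root. In flower, replicate 1 was above replicate 2 for all 9, and the log2 difference (2 minus 1) ran from -1.22 for CRA1 to -0.33 for SESA2. The seed markers moved with them, at -1.12 to -0.87. In the silique pair, however, the seed markers ran from -0.06 to 2.40 and the members from -0.06 to 0.18. In cauline leaf the markers ran from -0.30 to 0.33 and the members from 0.13 to 0.45. The markers ran from -0.11 to 0.28 in seedling, 0.40 to 0.57 in shoot and 0.12 to 0.26 in stem. In all pairs other than root and flower the log2(TPM + 1) difference was -0.12 to 0.53 for all members. That scale narrows the gaps of the low gene AT1G03890, whose ratio of replicate 2 to replicate 1 was 3.03 in shoot, wider than in root, and 0.131 in flower, the furthest from 1 of the 9. The part of the seed markers in these differences was not tested.

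**Figure D4:**
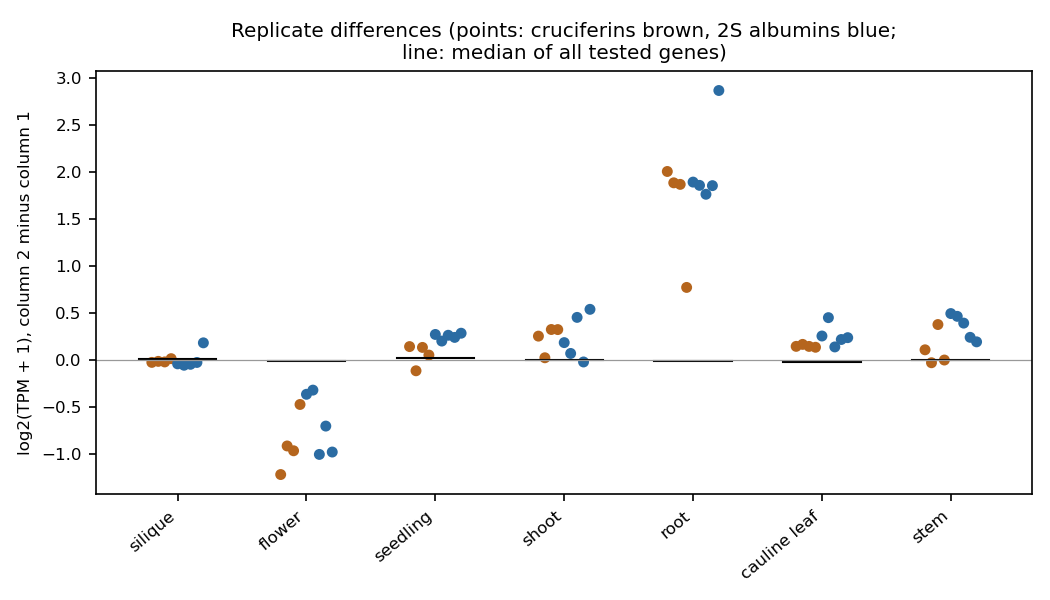
The log2(TPM + 1) difference within each replicate pair, 2 minus 1 (vertical), for the 9 genes (cruciferins brown, 2S albumins blue) in the 7 tissues with a pair (horizontal); the black line is the median of all tested genes. The root points lie between 0.77 and 2.86 and the flower points between -1.22 and -0.33.

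The factors known to act on these genes did not all stand high where the storage transcripts did. Of 13 transcription factors of storage gene control, 6 were called higher in seed than in the mean of the other 8 tissues and 4 lower. Over all genes 22.8% were called higher and 60.5% lower (list median 0.35, all genes -0.63). All list genes named here with a difference in seed against the other 8 tissues passed at an adjusted p of at most 0.0137, unless stated. ABI5, a bZIP factor of abscisic acid signalling, was the highest at a log2 difference of 7.68 (SE 0.20), with 625 TPM in seed and 4.55 to 5.36 TPM in silique. ABI3, the B3 factor of seed maturation, followed at 5.89 (SE 0.24), with 111 TPM in seed and 26.3 to 26.9 TPM in silique, and then EEL, another bZIP factor, at 3.68 (SE 0.12). The lowest were bZIP25 at -1.61 (SE 0.04), bZIP53 at -1.34 (SE 0.05) and LEC1 at -0.87 (SE 0.28, adjusted p = 0.0137). LEC1, an embryo-identity subunit of NF-Y, had 0.141 TPM in seed and 73.5 to 76.2 TPM in silique.

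Set directly against silique, 4 of the 13 factors were higher in seed and 9 lower, with a list median of -1.46 (all genes -0.63), where 22.5% of all genes were called higher and 56% lower. L1L, FUS3, MYB118 and bZIP67 were picked after their values were seen. Against the mean of the other 8 tissues, FUS3 and bZIP67 were called higher in seed, at log2 differences of 2.50 (SE 0.18) and 0.98 (SE 0.10). L1L had 1.13 TPM in seed and 99.5 to 105 TPM in silique, MYB118 0.177 TPM in seed and 35.1 to 36.7 TPM in silique, FUS3 15.1 TPM in seed and 42.8 to 44.1 TPM in silique, and bZIP67 2.07 TPM in seed and 25.2 to 26.5 TPM in silique. Silique against flower gave 10 of 13 higher and 3 lower, where 29.8% of all genes were called higher and 37.7% lower. ABI5 was among the lower, at -2.18 (SE 0.20). With the median gene of every library set level, seed against the other 8 tissues gave 9 factors higher and 2 lower, where 35.8% of all genes were called higher and 43.1% lower, and LEC1 was no longer called.

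Of 3 repressors of the seed programme, 2 were called lower in seed than in the mean of the other 8 tissues, where 60.5% of all genes were. VAL2 stood at -1.77 (SE 0.08) and PKL, a chromatin remodeller, at -0.65 (SE 0.05), near the all-gene median of -0.63. VAL1 was at -0.08 (limma adjusted p = 0.298). PKL was not called with the median gene set level, where VAL1 was called higher. Of 9 genes of processing and vacuolar sorting, 3 were higher and 6 lower in seed, where 22.8% of all genes were called higher and 60.5% lower (list median -0.70, all genes -0.63). With the median gene set level 3 were higher and 4 lower, alpha-VPE and MAG1 no longer being called. beta-VPE, the vacuolar processing enzyme known for cutting seed storage proteins, had 1673 TPM in seed and 116 to 123 TPM in silique, a log2 difference from the other 8 tissues of 6.80 (SE 0.09). VSR1, a vacuolar sorting receptor, stood at 0.99 (SE 0.04) and the aspartic protease gene PASPA1 at 0.93 (SE 0.03). PDIL1-1, a protein disulfide isomerase, was the lowest at -3.12 (SE 0.04), with 11.1 TPM in seed, before delta-VPE at -1.99 (SE 0.35) and gamma-VPE at -1.27 (SE 0.03). delta-VPE, known from the seed coat, had 0.467 TPM in seed and 1272 to 1307 TPM in silique.

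Of 6 other cupin-fold genes, 4 were higher in seed and 2 lower, where 22.8% of all genes were called higher and 60.5% lower, with a list median of 7.72 (all genes -0.63). AT2G28490 stood at 8.65 (SE 0.45), PAP85, a vicilin-like protein, at 8.15 (SE 0.55) and AT2G18540 at 8.14 (SE 0.29). The lower ones were AT1G07750 at -1.77 (SE 0.06) and AT2G28680 at -0.46 (SE 0.11), the last of which was not called with the median gene set level. PAP85 had 6064 TPM in seed and 444 to 488 TPM in silique.

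Across the 16 libraries the 9 genes followed each other closely. Pearson r of log2(TPM + 1) over the 36 pairs of members had a median of 0.979, from 0.845 for SESA2 and SESA5 to 0.998 for CRA1 and CRU3. Among 22372 other genes, the 5 nearest to the mean profile of the 9 were AT4G36700, a cupin-superfamily protein (r = 0.995), the oleosins OLEO2 (0.984) and OLEO1 (0.984) of the oil body surface, AT1G47540, annotated as a knottin-superfamily protein (0.983), and AT3G01570, annotated as an oleosin family protein (0.980). AT4G36700 had 753 TPM in seed and 600 TPM in silique (mean), and OLEO1 had 6827 TPM in seed and 2043 TPM in silique (mean). These values are a description over 16 libraries of 9 tissues, which share the gap between seed or silique and the rest: without the seed library 2 of the 5, and by rank 1 of the 5, were still among the 5 nearest.

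Ψ was listed in 7 of the 9 genes, all but SESA4 and SESA5, and all 12 sites lay in coding sequence. A site counts as called in a tissue where it passed the authors' filter there. Of the 12 sites, 10 were called in seed, where 18.2% of all sites were, 6 in silique, where 19.5% were, and 0 in any of the 7 other tissues, where 84.3% were. Seed alone called 6 (8.35% of all sites), silique alone 2 (4.34%), and seed with silique and nowhere else 4, of the 24 such sites in the table (0.282%). Nearly all listed sites had a call in at least 1 tissue, 97.3% of all and 12 of the 12 here. Since these genes were at their highest in seed and silique, the counts cannot show a preference of Ψ for those tissues. The 16 called pairs of site and tissue had a gene level of 439 to 6471 TPM, and the 84 pairs in the other 7 tissues one of at most 133 TPM. Within seed and silique the 8 uncalled pairs lay at 371 to 5027 TPM, a range that overlaps that of the called pairs. Of those 84 pairs, 43 had a fraction above 0, 40 were at 0 and 1 had no value, and whether the uncalled fractions stand above background deletions was not tested. The part of the gene's level in where sites were called was not tested.

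The site windows are printed as 21 bases of the coding strand, 5′ to 3′, with the 7-base motif in capitals and the base listed as modified, T in DNA letters, at position 11 of the window. They are chosen to compare copies of a site. SESA2 site 1 (chr4:13609436, plus) and SESA3 site 1 (chr4:13611876, plus) are the same base of the coding sequence, position 41, in a CTC codon.
SESA2: actttcgCCCTCTGcttcctc
SESA3: actctcgCCCTCTGcttcctc
The aligned windows of the other albumins hold the same T, and capitals now mark the bases that differ from SESA3.
SESA1: GctctcgcTctctgcttcctc
SESA4: GctctcgccctGtgTttcAtc
SESA5: actctTgccctctTcAtcctc
SESA1, SESA4 and SESA5 have no listed site there and differ from SESA3 at 2, 4 and 3 of the 21 bases. The Ψ fraction of SESA2 site 1 was 0.0530 in seed and 0.0528 in silique, and that of SESA3 site 1 was 0.0542 in seed and 0.0537 in silique, all 4 called. SESA3 site 1 was also above 0 in all 7 other tissues, at 0.0229 to 0.0542, and SESA2 site 1 reached 0.115 in stem, none of these called. SESA2 and SESA3 are identical over a stretch of 43 bases that holds the site, so reads inside that stretch fit either copy, and how they were assigned is not given in the sources used here. SESA3 and SESA1 are identical over 41 bases there.

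SESA3 site 2 (chr4:13612048, plus), in a GGT codon, had a Ψ fraction of 0.0176 in seed, called, and 0.0103 in silique, not called, and reached 0.0761 in flower, also not called. It is shown with its copy in SESA4 (chr4:13613849), which has the same 21 bases and a stretch of 44 identical bases around the site but no listed site.
SESA3: aaggacgTGGTGGTggtcctt
SESA4: aaggacgtggtggtggtcctt
Counted by 31-base windows of the transcripts, 9.08% of SESA3, 5.67% of SESA2, 2.97% of SESA1 and 2.28% of SESA4 were found in another member, and none of SESA5 or of the cruciferins. No window was found elsewhere in the nuclear genome. These are exact matches, and the levels of SESA1 to SESA4 are uncertain to the extent that reads with mismatches were shared between them, which was not tested.

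CRA1 held 3 sites, each called in seed only. Site 1 (chr5:17758116, minus, coding position 131, CTC codon) had a fraction of 0.0997 in seed and 0.0675 in silique. Site 2 (chr5:17757957, position 290, TTC codon) had 0.0836 in seed and 0.0731 in silique, and site 3 (chr5:17756502, position 1377, AGT codon) had 0.0602 in seed and 0.0227 in silique. Site 1 is printed with its aligned copy in CRB (chr1:985898), which differs at 3 of 21 bases, shown in capitals, and has no listed site.
CRA1: ctcaatgCGCTCGAgccgtca
CRB: ctcaatgcgctcgaAccAtcC
In tissues without a call the fractions of CRA1 reached 0.153 at site 1 in rosetta leaf, 0.208 at site 2 in root and 0.0848 at site 3 in rosetta leaf, all above the seed values, in a gene at 9.37 to 49.9 TPM there. The 14 identical bases of CRA1 and CRB around the T of site 1 include the whole motif, and CRB stood at 3435 TPM in seed against 5226 TPM for CRA1.

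AT1G03890 had the highest fraction of a called member site, 0.291 in seed, at a TTC codon (chr1:989785, plus). In silique it was 0.179, not called, although the gene had 370 and 372 TPM there, and in cauline leaf 0.533, not called, at 0.325 and 0.451 TPM.
AT1G03890: ttggagaATTTCCGgcgaggg
The listed base sits in UUC context, as in CRA1 site 2. In both windows it is the last T of a TTT run. A deletion of any T of the run gives the same read, so which of them is Ψ cannot be told.

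CRU3 held 3 sites. Site 1 (chr4:14088032, plus) was called at 0.0097 in seed and 0.0128 in silique, site 2 (chr4:14088351) at 0.0504 in silique and not at 0.0356 in seed, and site 3 (chr4:14089532) at 0.0312 in seed and not at 0.0114 in silique. Uncalled fractions were higher here too, up to 0.0608 at site 1 in flower, 0.0857 at site 2 in cauline leaf and 0.0774 at site 3 in root. CRB site 1 (chr1:986301), called in seed and silique, and SESA1 site 1 (chr4:13607642), called in silique, had a deposited fraction of 0 in all 9 tissues. Over all sites such calls at 0 were rare, 0.194% of the calls in seed and 0.482% of those in silique.

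Called member sites were low. Their median fraction was 0.0536 over 10 sites in seed and 0.0316 over 6 in silique, against 0.199 and 0.180 over all other called sites. The member medians include calls at 0, 1 of the 10 in seed and 2 of the 6 in silique, and the latter lower the silique median. For other called sites in genes of at least 1000 TPM the median was 0.0601 over 225 sites in seed and 0.0682 over 63 in silique. In seed, 93 of the 145 genes at or above that level had a called site, and 5 of the 8 members at that level did.

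**Figure D5:**
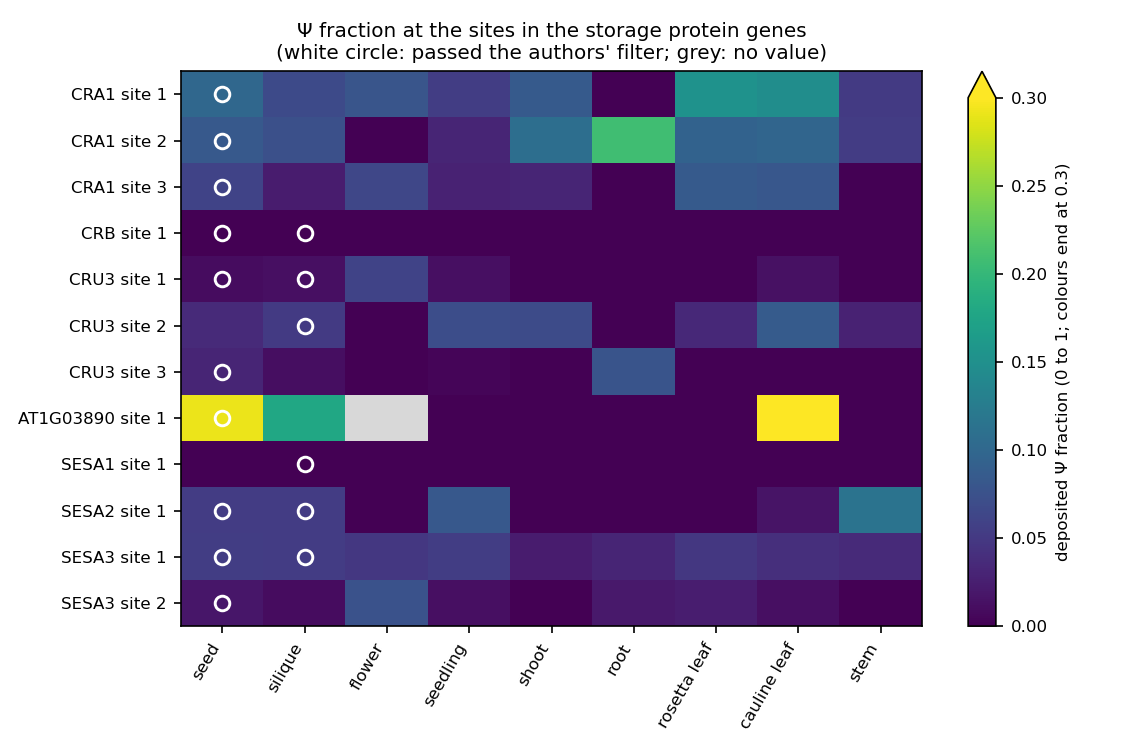
Deposited Ψ fraction (colour) of the 12 sites (rows) in 9 tissues (columns); white circles mark calls and grey a missing value. The 16 calls lie in seed and silique, and the brightest cells are AT1G03890 site 1, at 0.291 in seed (called) and 0.533 in cauline leaf (not called, past the end of the colours at 0.3).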

How the data were processed

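Per the study's methods, the authors mapped reads to TAIR10, summed gapped and ungapped reads over the replicates of a tissue, and turned the gap ratio into a Ψ fraction with a calibration curve. Sites passed a p-value based filter. The deposited fraction is therefore pooled, with no counts. The deposited expression values are TPM, scaled to the same total in every library; the counter is not given in the sources used here. TPM columns name a tissue and replicate but not the library type, and were assigned to the input libraries because their numbers match. Columns of other samples: 0.

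TPM was tested as log2(TPM + 1) with limma 3.58.1 (lmFit, eBayes with trend, R 4.3.3), with a coefficient for each tissue, over the 26078 genes with at least 1 TPM in at least 1 library, Benjamini-Hochberg adjusted, and called at 0.05. A fold on this scale understates the change of low genes. P-values measure the spread between these libraries, which may be technical. On simulated data of 26078 genes for seed against the other 8 tissues, 200 genes were changed: a share of 0.97 was recovered at a log2 size of 1 and of 1 at a size of 2. A share of 0.0529 of the calls was false. The simulation gave each gene the same spread in seed as in the other tissues. It therefore cannot check that assumption, nor the power for genes with a pair as wide as that of the members in root. Coding sequences were aligned with MAFFT 7.526 in place of proteins, and shared windows of 31 bases were counted. Sequences are from RefSeq, TAIR10.1.

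Named were the 9 members, their sites, the 3 largest called rises and falls of each list in seed against the other 8 tissues, and the 5 nearest profiles. The members and lists were chosen with earlier results of these data known. Alternatives were pseudocounts, filters, rescaling, a replicate block and leaving out libraries.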

Additional observations from a re-analysis of the deposited data

How the results depend on the processing

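Over 21 alternative settings and 45 member differences, 920 of 945 values kept direction and side of the threshold, 23 newly passed it, none was lost and 2 turned sign. Both turns were SESA2 in seed against silique, at 0.041 (adjusted p = 0.947) with the replicate block and 0.48 (adjusted p = 0.420) with median-centred libraries. Replicate numbers did not pair the libraries (r of -0.07 to 0.09 over 21 pairs of tissues), and the block, fitted for completeness, gave 1 member called in seed against silique. Leaving out a library gave 1 to 6 members called there, 6 without either root library, whose pair is the widest; without both root libraries and with median-centred libraries, 2 settings chosen after seeing the data, it was 6 each. In seedling against shoot leaving out a library gave 8 to 9. Members called stayed at 9 in the other 3 comparisons. A minimum fraction of 0.1 left 1 of the 12 called sites, all 12 were exonic, Spearman's rho lowered the median likeness of members to 0.901 (0.979 by Pearson), and the number of transcript windows shared between members was 0 at 51 bases. With 1 seed library and pooled fractions, no spread can be given for seed or for any Ψ value.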
